A study of Mus musculus with 11 samples.

Results

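The genes described here were 10 of the 25677 listed in the kidney RNA-seq tables of this series. They were taken by symbol, and the tables listed each of them. Jchain, Mzb1, Derl3, Xbp1, Prdm1 and Sdc1 belong to the plasma cell program, and Tnfrsf17 (BCMA), Tnfrsf13b (TACI), Tnfsf13b (BAFF) and Tnfsf13 (APRIL) are receptors and ligands of the BAFF/APRIL axis. RNA of whole kidneys came from 11 female mice, each 21 weeks old and each giving 1 library. The control group (Ctr, n = 3) consisted of C57BL/6J mice. The Lpr group (n = 4) consisted of untreated MRL/lpr mice, a strain that carries the lpr mutation of the Fas gene and develops lupus nephritis. The DNase group (n = 4) consisted of MRL/lpr mice that were injected intraperitoneally with DNase I every day until they were killed. Both MRL/lpr groups differ from Ctr in strain background as well as in disease, and these cannot be told apart. The labels name no vehicle injection for Lpr or Ctr.

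A plasma cell is a B cell that has become an antibody factory. Prdm1 encodes Blimp-1, the repressor that ends the B cell program, and Xbp1 encodes the transcription factor that enlarges the secretory apparatus. The endoplasmic reticulum (ER) proteins Mzb1 and Derl3 assist folding and removal of misfolded proteins, J chain joins the subunits of polymeric IgA and IgM, and Sdc1 (syndecan-1, CD138) is the surface proteoglycan by which plasma cells are usually sorted. BAFF and APRIL are cytokines of the tumor necrosis factor family that keep B cells and plasma cells alive. Both bind TACI and BCMA, BAFF alone binds the BAFF receptor Tnfrsf13c, and BCMA marks long-lived plasma cells. In lupus nephritis, plasma cells are known to enter the inflamed kidney, and BAFF is a drug target of the disease. Xbp1 and Sdc1 are not particular to plasma cells, since epithelial and secretory cells express them too.

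The libraries held 33469858 to 38460873 counts each. Library Lpr replicate 3 stood apart from the rest: its log2 level fell by 0.39 for each doubling of gene length, whereas this slope was between -0.04 and 0.08 in the other 10 libraries. For the gene lists below, counts called in Lpr against Ctr that changed without it are given with and without it. Counts summed over the Fas gene were at a log2 difference of -0.01 between Lpr and Ctr (SE 0.23, adjusted p = 0.98), but a count per gene does not separate the aberrant transcripts of the lpr allele, so it does not check the labels. Levels are given in CPM, the counts of a gene normalised to library size with scaling by the trimmed mean of M-values (TMM) over all 11 libraries. A gene is said to be called, or to have risen or fallen, where the adjusted p was under 0.05 and the absolute log2 fold change above 2, the thresholds used by the study.

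Jchain, Mzb1 and Derl3 of the plasma cell program, BAFF, and the receptors TACI and BCMA rose in the Lpr kidneys over the control kidneys, whereas Xbp1, Prdm1, Sdc1 and APRIL were not called. Between Lpr and Ctr, 6 of the 10 genes were called higher and none lower, where 4.65% of all 16074 genes tested were called higher and 1.13% lower. Jchain rose 34.8-fold, Mzb1 21.7-fold, Tnfsf13b 5.95-fold, Tnfrsf13b 5.86-fold and Derl3 4.53-fold, and Tnfrsf17, nearly absent from Ctr, was called as well. Between DNase and Lpr none of the 10 genes was called by edgeR, none reached an unadjusted p under 0.05, and DESeq2 called none of them. Over all 15832 genes tested the called share was 0%, while 5.6% had an unadjusted p under 0.05. The median log2 fold change of the 10 genes was 2.37 between Lpr and Ctr and 0.10 between DNase and Lpr, beside medians of 0.03 and -0.02 over all genes tested. In whole tissue, more cells of a type cannot be told apart from more RNA per cell.

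**Figure D1:**
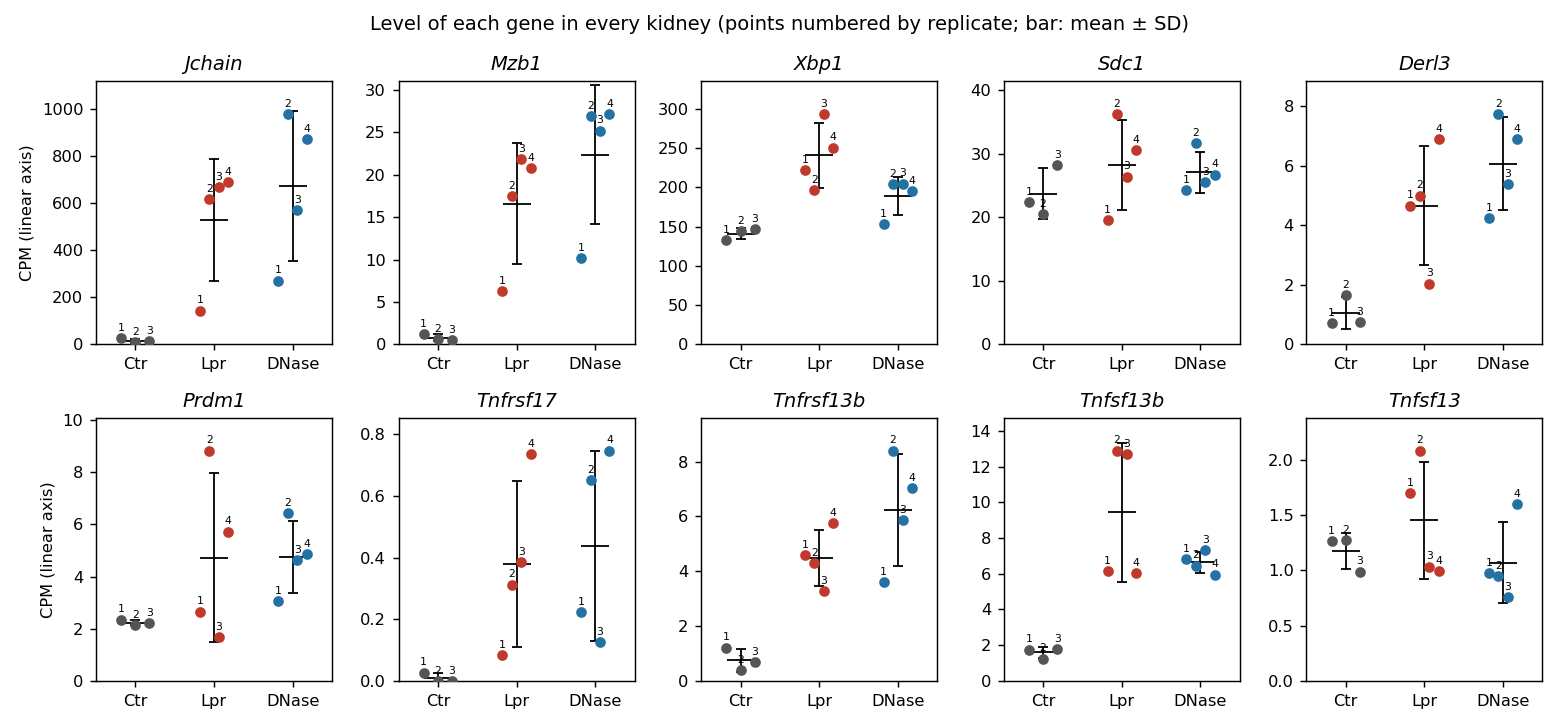
CPM of each of the 10 genes (linear vertical axes, different in each panel) in every kidney of the Ctr, Lpr and DNase groups, with points numbered by replicate and bars for mean ± SD. For Jchain and Mzb1 every MRL/lpr kidney lies above every Ctr kidney, and Lpr 1 and DNase 1 lie lowest within their groups, whereas for Sdc1 and Tnfsf13 the 3 groups overlap.

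Jchain (chr5:88519809-88527891, minus strand, GENCODE M21 on GRCm38, as for the positions below) showed the largest fold change among the genes with counts in every kidney. Its level was 24.8, 7.43 and 13.8 CPM in the 3 Ctr kidneys, 143, 616, 668 and 689 CPM in Lpr, and 271, 979, 571 and 872 CPM in DNase. The lowest MRL/lpr kidney was thus well above the highest control, and the 2 MRL/lpr groups overlapped. Jchain alone took 0.0141 to 0.0713% of all counts in Lpr and 0.0279 to 0.102% in DNase, against 0.0007 to 0.00241% in Ctr. The log2 fold change of Lpr over Ctr was 5.12 (SE 0.69, adjusted p = 0.0024), or 34.8-fold with a 95% interval of 11.7 to 104. DNase over Ctr gave 5.45 (SE 0.59, adjusted p = 0.00018). DNase over Lpr was 1.27-fold with an interval of 0.58 to 2.76 (adjusted p = 0.89).

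Mzb1, which encodes an ER co-chaperone of antibody assembly, had the same distribution at a lower level. It was measured at 1.21, 0.574 and 0.509 CPM in Ctr, at 6.27, 17.5, 21.8 and 20.8 CPM in Lpr, and at 10.2, 26.9, 25.2 and 27.2 CPM in DNase. The first kidney of each MRL/lpr group was again the lowest, still above every control. Lpr exceeded Ctr by 4.44 on the log2 scale (SE 0.55, adjusted p = 0.0017), and DNase exceeded Ctr by 4.85 (adjusted p = 8.5e-05). DNase was 1.34-fold of Lpr, with an interval of 0.71 to 2.53 (adjusted p = 0.86). In the GENCODE M21 annotation, 57.2% of the exonic bases of Mzb1 are shared with a gene model on the same strand, SPATA24. That symbol is not among the genes listed in this series, and the annotation used for counting is not given. Whether reads of the shared stretch were counted for Mzb1 is therefore not known.

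Derl3 (chr10:75893413-75895941, plus strand) encodes derlin-3, a channel component that extracts misfolded proteins from the ER. It was at 0.701, 1.66 and 0.749 CPM in Ctr, 4.66, 5.00, 2.04 and 6.91 CPM in Lpr, and 4.24, 7.75, 5.40 and 6.90 CPM in DNase. Every MRL/lpr kidney was above every control, but the gap between Ctr replicate 2 and Lpr replicate 3 was small. The log2 fold change was 2.18 for Lpr over Ctr (SE 0.50, adjusted p = 0.026) and 2.56 for DNase over Ctr (adjusted p = 0.00089), and DNase was 1.30-fold of Lpr (interval 0.76 to 2.23, adjusted p = 0.85). The call for Lpr over Ctr was lost when any of 5 libraries was left out: without Ctr 1 (log2 1.96, adjusted p = 0.12), Ctr 3 (1.99, 0.12), Lpr 1 (2.19, 0.056), Lpr 2 (2.12, 0.065) or Lpr 4 (1.93, 0.057). It was kept without Ctr 2 and without Lpr 3. It was lost as well when the trend with gene length was removed (log2 1.95, adjusted p = 0.055).

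The promoter of Derl3 is shown because it holds the ER stress response element (ERSE), the site through which spliced XBP1 and ATF6 act on secretory genes. The element searched was CCAAT and CCACG with any 9 bases between them, on either strand, and 0.119% of all 32851 mouse promoters in the RefSeq table contained it. The 300 bases below span chr10:75893148-75893447 of GRCm38.p6 on the plus strand, around the RefSeq start of the gene. Capitals mark the element, which reads on the reverse strand and begins 156 bases before the start.
Derl3 promoter: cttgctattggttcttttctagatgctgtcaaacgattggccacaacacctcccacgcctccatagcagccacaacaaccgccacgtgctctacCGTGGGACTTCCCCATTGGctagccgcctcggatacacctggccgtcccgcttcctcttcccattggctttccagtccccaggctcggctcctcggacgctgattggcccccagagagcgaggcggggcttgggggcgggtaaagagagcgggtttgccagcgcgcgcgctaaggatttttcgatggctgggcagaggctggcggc
Promoters of 9 of the 10 genes were searched, and none of the others held this element in its window. No promoter of the 9 held the octamer ATGCAAAT (1.74% of all promoters), the unfolded protein response element TGACGTGG (0.676%), the kB-like site GGGA and TTCC with any 2 bases between them (1.47%), or the GAS-like site TTCNNNGAA (8.3%), on either strand. Other spellings of these sites were not searched, so such sites may still be present.

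Xbp1 (chr11:5520659-5525893, plus strand) was abundant in control kidneys and higher in MRL/lpr kidneys by less than the fold threshold. It was at 133, 144 and 147 CPM in Ctr, at 222, 196, 294 and 251 CPM in Lpr, and at 154, 205, 205 and 195 CPM in DNase. All 8 MRL/lpr kidneys were above the 3 controls. The difference of Lpr from Ctr was 1.72-fold (log2 0.78, SE 0.18, adjusted p = 0.027), and that of DNase from Ctr was 1.34-fold (log2 0.43, adjusted p = 0.026). These adjusted p-values passed 0.05 only with all libraries in place or with some left out. For Lpr against Ctr the adjusted p was 0.14 without Ctr 1, 0.11 without Ctr 2 or Ctr 3, and 0.062 without Lpr 4, and for DNase against Ctr it was 0.096 without Ctr 1, 0.065 without DNase 2 or DNase 4, and 0.059 without DNase 3. DNase was 0.78 of Lpr, with an interval of 0.60 to 1.02 (adjusted p = 0.85). Lpr replicate 2 overlapped the DNase group, so the kidneys did not separate.

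What makes Xbp1 active is an unusual splice: during ER stress the enzyme IRE1 cuts 26 bases out of the mRNA in the cytoplasm, which shifts the reading frame. A count per gene cannot tell spliced from unspliced mRNA, so the values above say nothing on the active form. The removed bases are shown in capitals with their flanks. They lie in exon 4 at chr11:5524279-5524304 of GRCm38 on the plus strand, as bases 815 to 840 of the 2129-base transcript Xbp1-201. Removing them in this sequence lengthens the open reading frame from 267 to 371 codons.
Xbp1 splice site: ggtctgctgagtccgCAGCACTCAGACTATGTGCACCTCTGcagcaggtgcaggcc

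Prdm1 (chr10:44437177-44528501, minus strand) and Sdc1 (chr12:8771323-8793715, plus strand) were not called in any comparison. Prdm1 was at 2.14 to 2.35 CPM in Ctr, at 2.66, 8.83, 1.68 and 5.72 CPM in Lpr, and at 3.07, 6.42, 4.64 and 4.87 CPM in DNase. Lpr therefore spanned a 5.24-fold range, from below every control to far above, while every DNase kidney was above every control. The log2 difference was 1.09 for Lpr over Ctr (SE 0.54, adjusted p = 0.29) and 1.09 for DNase over Ctr (SE 0.26, adjusted p = 0.015), equal in size and unlike in error. The second passed the adjusted p without reaching the fold threshold. The long Prdm1 transcript, counted over 9742 bases, was lowest in Lpr replicate 3, the library with the steep length slope. Without that library Lpr over Ctr was 1.37 (adjusted p = 0.062). The difference of DNase from Lpr was 1.00-fold, with a wide interval of 0.48 to 2.08.

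Sdc1 was at 20.5 to 28.2 CPM in Ctr, 19.5 to 36.2 CPM in Lpr and 24.3 to 31.7 CPM in DNase, so the 3 groups overlapped. The fold was 1.20 for Lpr over Ctr (interval 0.82 to 1.75, adjusted p = 0.60), 1.14 for DNase over Ctr (0.92 to 1.42, adjusted p = 0.38) and 0.96 for DNase over Lpr (0.71 to 1.29, adjusted p = 0.95). The usual sorting marker of plasma cells thus did not separate the kidneys that Jchain separated by 34.8-fold.

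Of the receptors, BCMA (chr16:11313812-11320074, plus strand) was at the edge of detection. Tnfrsf17 had 1, 0 and 0 counts in Ctr, 3, 12, 13 and 26 counts in Lpr, and 8, 24, 5 and 29 counts in DNase. No MRL/lpr kidney had as few counts as a control. Summed over the kidneys, Lpr held 54 counts and Ctr 1, a ratio of 38.5 after scaling with an exact 95% interval of 6.62 to 1547 that covers counting error only. For DNase against Ctr, 66 counts against 1 gave 44.4 (interval 7.70 to 1781). The gene was called for Lpr over Ctr (adjusted p = 0.027) and was below the count filter for DNase against Ctr. The call was lost without Ctr 1 (adjusted p = 0.090), Ctr 2 (0.11) or Ctr 3 (0.11), and without Lpr 2, 3 or 4 the gene did not pass the count filter. DNase against Lpr was 1.15 in summed counts (interval 0.79 to 1.69).

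TACI (chr11:61126755-61149372, plus strand) was measured more firmly. Tnfrsf13b was at 1.21, 0.383 and 0.689 CPM in Ctr, 4.58, 4.30, 3.28 and 5.75 CPM in Lpr, and 3.60, 8.40, 5.88 and 7.03 CPM in DNase. All 8 MRL/lpr kidneys were above the controls. Lpr exceeded Ctr by 2.55 on the log2 scale (SE 0.43, adjusted p = 0.0065), and DNase exceeded Ctr by 3.01 (adjusted p = 0.00089). Leaving out any single library changed neither call. In 3 of the 4 DNase kidneys the level was higher than in every Lpr kidney, and the fourth was the second lowest of the 8. The difference of DNase from Lpr was 1.39-fold, with an interval of 0.89 to 2.15 (adjusted p = 0.85).

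BAFF (chr8:10006467-10039072, plus strand) rose, and APRIL (chr11:69682846-69685784, minus strand) was not called in any comparison. Tnfsf13b was at 1.75, 1.24 and 1.80 CPM in Ctr, 6.13, 12.9, 12.7 and 6.03 CPM in Lpr, and 6.83, 6.45, 7.34 and 5.95 CPM in DNase. Lpr split into 2 kidneys near 13 CPM and 2 near 6 CPM, and the 4 DNase kidneys lay with the lower pair of Lpr. The upper pair was Lpr 2 and Lpr 3, the latter being the library with the steep length slope. Lpr exceeded Ctr by 2.57 on the log2 scale (SE 0.39, adjusted p = 0.0043). DNase exceeded Ctr by 2.05 (SE 0.20, adjusted p = 9.2e-05), just above the fold threshold, and fell under it without Ctr 2 (1.90) or DNase 3 (2.00 when rounded). DNase was 0.70 of Lpr, with an interval of 0.45 to 1.09 (adjusted p = 0.85). The SD was 3.88 CPM over the Lpr kidneys and 0.589 CPM over the DNase kidneys, a difference in spread that was not tested.

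Tnfsf13 was at 0.989 to 1.28 CPM in Ctr, 0.991 to 2.08 CPM in Lpr and 0.756 to 1.60 CPM in DNase, which corresponds to 30 to 80 counts per kidney. The groups overlapped. The fold was 1.24 for Lpr over Ctr (interval 0.69 to 2.25, adjusted p = 0.69), 0.91 for DNase over Ctr (0.56 to 1.48) and 0.74 for DNase over Lpr (0.42 to 1.28). In GENCODE M21, 60.0% of the exonic bases of Tnfsf13 are shared with the readthrough gene Tnfsfm13 on the same strand and 13.5% with the antisense gene Tnfsf13os. Tnfsfm13 is not among the genes listed in this series, and the annotation used for counting is not given. Whether the counts understate Tnfsf13 is therefore not known. Without a stated strand setting sense and antisense reads cannot be told apart.

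The window of Tnfsf13b around its second RefSeq start is shown because BAFF is known as an interferon-inducible cytokine. It spans chr8:10006383-10006682 of GRCm38.p6 on the plus strand. Capitals mark a site like the interferon-stimulated response element (ISRE), namely GAAA, any 2 bases and GAAA again. It begins 16 bases before the start, and 3.44% of all promoters held such a site on either strand. The window at the other RefSeq start, chr8:10006217-10006516, held no such site, and among the other genes only the Tnfrsf17 window held one, 101 bases before its start on the reverse strand.
Tnfsf13b promoter: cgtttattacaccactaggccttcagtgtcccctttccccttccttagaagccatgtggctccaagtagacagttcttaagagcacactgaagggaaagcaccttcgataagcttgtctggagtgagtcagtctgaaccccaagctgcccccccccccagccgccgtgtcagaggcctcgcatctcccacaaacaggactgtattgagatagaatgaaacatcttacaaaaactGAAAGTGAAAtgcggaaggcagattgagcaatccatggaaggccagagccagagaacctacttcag

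**Figure D2:**
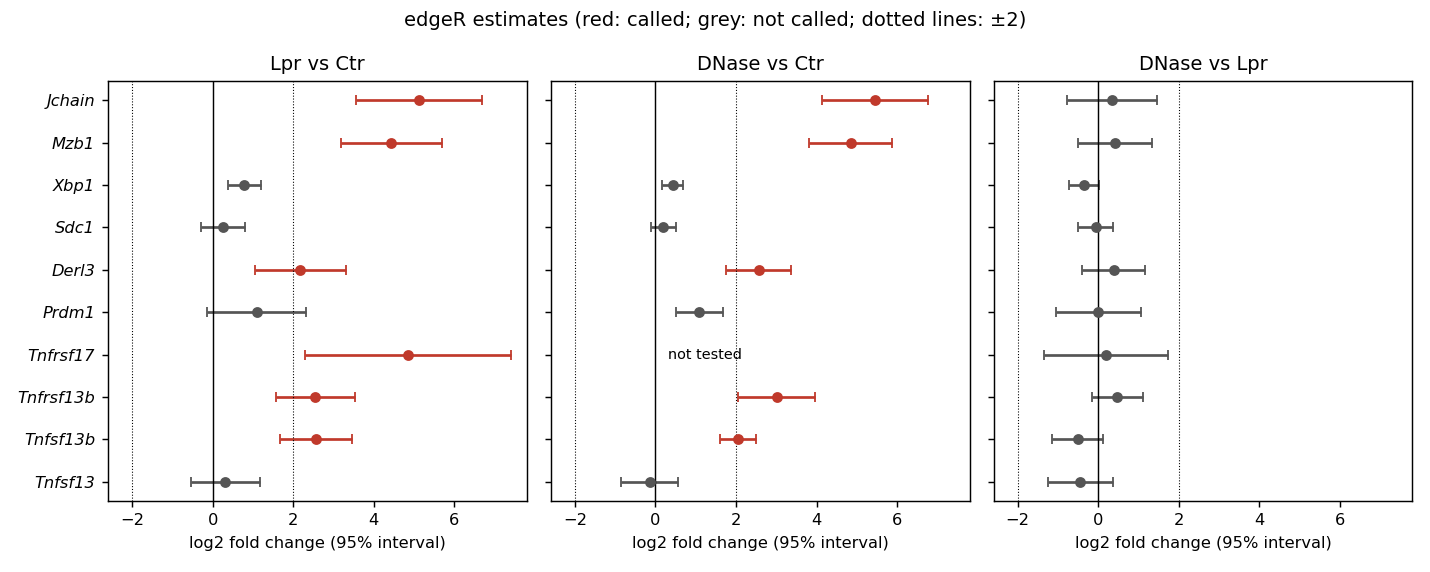
Log2 fold change from edgeR with its 95% interval for each of the 10 genes in the comparisons Lpr vs Ctr, DNase vs Ctr and DNase vs Lpr, with called genes in red and dotted lines at the fold threshold. All DNase vs Lpr intervals include 0, and those of Jchain and Mzb1 against Ctr lie wholly beyond the threshold.

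Compared with the controls, the DNase kidneys showed nearly the same members called as the Lpr kidneys, a comparison that shares the 3 Ctr libraries. Of the 9 genes that passed the count filter, 5 were called higher (Jchain, Mzb1, Derl3, Tnfrsf13b and Tnfsf13b), where 4.56% of 16100 genes were called higher and 1.45% lower. Adjusted p alone was under 0.05 with a higher level for 7 of 9, adding Xbp1 and Prdm1, where 13.1% of all genes did so. For Lpr against Ctr it was 7 of 10, adding Xbp1, where 7.27% of all genes did so. The kidneys of the groups did not overlap, with MRL/lpr higher, for 7 of 10 genes in Lpr against Ctr (14.2% of all genes) and for 8 of 10 in DNase against Ctr (18.2% of all genes), of which Tnfrsf17 was below the count filter. No gene of the 10 separated the DNase from the Lpr kidneys, where 2.08% of all genes did so upward and 1.68% downward.

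The order of the levels per transcript length, in FPKM, differed between control and MRL/lpr kidneys. In Ctr, Xbp1 led with a mean of 60.6 FPKM, followed by Jchain with 7.08 and Sdc1 with 6.94, which did not differ beyond their spread. In Lpr, Jchain led with 252 FPKM, followed by Xbp1 with 107, Mzb1 with 18.3 and Sdc1 with 8.57, and DNase had the same first 4 with 330, 86.9, 25.4 and 8.45 FPKM. Below these, 7 genes were under 1 FPKM in Ctr. In Lpr and DNase only Tnfsf13, Prdm1 and Tnfrsf17 remained under 1 FPKM, and Tnfrsf13b, which ranked 8 in Ctr below Tnfsf13, ranked 7 above it. Tnfsf13b and Derl3 were neighbours in every group, at 0.736 and 0.737 FPKM in Ctr, 4.46 and 3.50 FPKM in Lpr, and 3.26 and 4.65 FPKM in DNase. Their SD of 1.80 and 1.61 FPKM in Lpr exceeded the distance between them.

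Within the MRL/lpr mice, Jchain and Mzb1 had nearly the same profile from kidney to kidney, and BAFF had a different profile. On the log2 scale, centred on the mean over the 8 MRL/lpr kidneys, Jchain was at -1.87 in Lpr 1 and -0.96 in DNase 1, and Mzb1 was at -1.49 and -0.81 in the same kidneys. Both were above their mean in Lpr 3, Lpr 4 and DNase 2 to 4. Tnfsf13b was at 0.75 in both Lpr 2 and Lpr 3 and between -0.36 and -0.07 in the other 6. The profile nearest to that of Jchain among 13972 genes with at least 1 CPM was that of Mzb1, with a mean absolute difference of 0.23 over these 8 kidneys, where the median over all genes was 0.76. The next were Adgre4 (0.23), Fpr1 (0.33), Oosp1 (0.37) and Kcnf1 (0.37). Among the remaining members with enough counts, Tnfrsf13b ranked 111, Sdc1 199, Derl3 486, Xbp1 523 and Prdm1 534, while Tnfsf13b ranked 9662 and Tnfsf13 12392.

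The genes with profiles nearest to the other 3 reference members were different in kind. For Tnfsf13b they were Krt8 (0.10), a keratin of simple epithelia, Pdlim7, Cmtm3, Marcksl1 and Bex3 (up to 0.12). For Xbp1 they were Meaf6 (0.08), Pex13, Abhd5, Eif3j1 and Eri1, and for Sdc1 they were Lpar6 (0.09), Ccdc50, Tmem123, Tmed5 and Phf14, at ranks 2 to 6, since a predicted gene at rank 1 is counted but not named. A gene whose own range is narrow has many near neighbours by this measure, and the 8 points share the split into treated and untreated mice, so these distances are descriptions only.

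**Figure D3:**
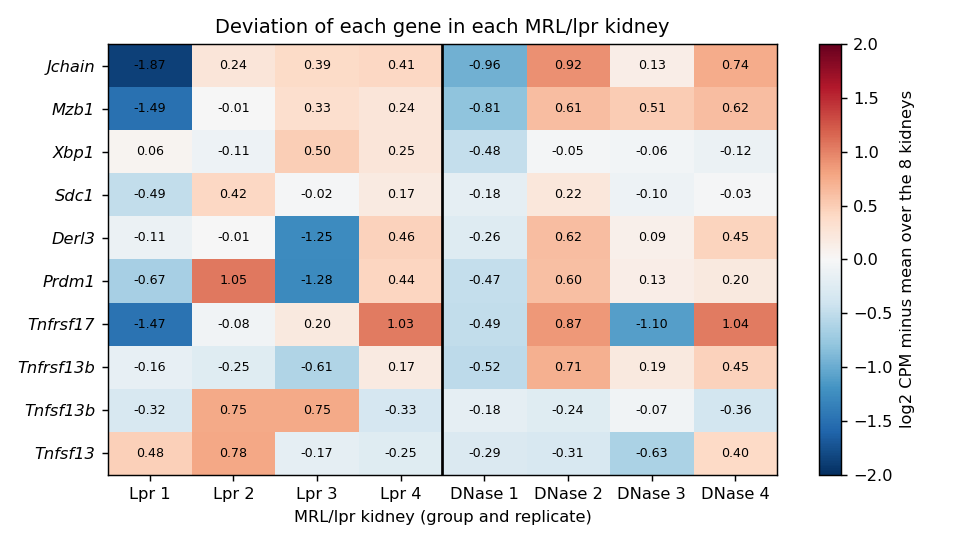
Log2 CPM of each of the 10 genes in each MRL/lpr kidney minus the gene's mean over the 8 kidneys (colour scale in log2 units, red above and blue below the mean, with the value printed in each cell). Jchain and Mzb1 are lowest in Lpr 1 and next lowest in DNase 1, Derl3 and Prdm1 are lowest in Lpr 3, and Tnfsf13b is high in Lpr 2 and Lpr 3 only.

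Because a ratio of 2 transcripts within a kidney does not depend on how libraries are scaled, BAFF was set against APRIL and J chain against the B cell receptor component Cd79a, as counts per kilobase. The log2 ratio of Tnfsf13b to Tnfsf13 was 0.14, -0.36 and 0.53 in the Ctr kidneys, 1.52, 2.30, 3.28 and 2.26 in Lpr, and 2.46, 2.42, 2.93 and 1.56 in DNase. Every MRL/lpr kidney had the higher ratio, and the MRL/lpr groups overlapped. The means were 0.10 ± 0.45 (SD, n = 3), 2.34 ± 0.72 (n = 4) and 2.35 ± 0.57 (n = 4). Lpr exceeded Ctr by 2.24 and DNase exceeded Ctr by 2.24, each with p = 0.0571 in a two-sided exact permutation test, which is the smallest p that 3 against 4 kidneys allow (0.171 adjusted over the 6 ratio comparisons). DNase differed from Lpr by 0.01 (exact permutation p = 1).

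The log2 ratio of Jchain to Cd79a was 3.47, 5.48 and 2.62 in Ctr, 4.54, 5.24, 5.95 and 5.20 in Lpr, and 4.67, 5.38, 4.58 and 5.42 in DNase. The groups overlapped, since Ctr replicate 2, with 2 counts of Cd79a, had a ratio as high as the MRL/lpr kidneys. The differences were 1.38 for Lpr over Ctr (exact permutation p = 0.229), 1.15 for DNase over Ctr (p = 0.286, exact permutation) and -0.22 for DNase over Lpr (exact permutation p = 0.657), and none was below 0.429 after adjustment over the 6 comparisons. Since 3 against 4 kidneys allow no p below 0.0571, this test could not place a shift against Ctr past the threshold. The differences from Ctr were 2.18 (Lpr) and 1.96 (DNase) without Ctr 2, 0.76 and 0.54 without Ctr 3, and 1.77 and 1.56 with log2(FPKM + 0.1), where both were at that smallest p.

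**Figure D4:**
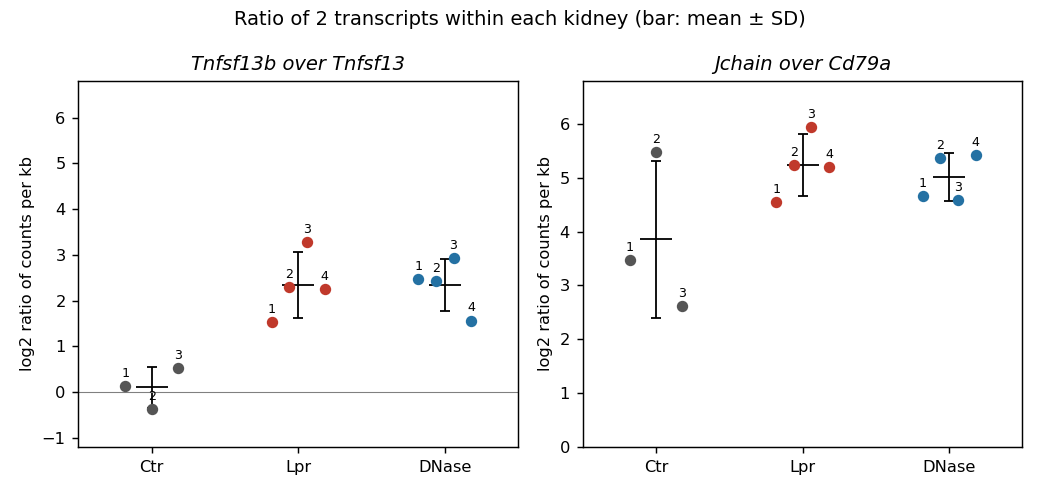
Log2 ratio of counts per kilobase within each kidney, Tnfsf13b over Tnfsf13 on the left and Jchain over Cd79a on the right, with points numbered by replicate and bars for mean ± SD. On the left the 3 Ctr kidneys lie between -0.36 and 0.53 and the MRL/lpr kidneys between 1.52 and 3.28, and on the right the groups overlap.

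Around the 10 genes, further plasma cell regulators followed in part. Of 14 such genes, 3 were called higher in Lpr than in Ctr: Pou2af1, the B cell coactivator OBF-1 (log2 5.02, adjusted p = 0.0030), and the costimulatory receptors Cd27 (4.31, 0.0042) and Cd28 (4.01, 0.013), which T cells also carry. The median of the list was 1.41, and 5 of the 14 had an adjusted p under 0.05. Ell2, Bmi1, Txndc5 and Fkbp11 had the lowest estimates, at 0.01, 0.10, 0.18 and 0.40. Without Lpr 3 the count called was 5, with Irf4 and Slamf7 added. The Cd28 call was lost without any one of the Ctr kidneys (adjusted p 0.051 to 0.073). Irf4, which drives plasma cell differentiation, was at 2.09 (adjusted p = 0.062) and was called in DNase against Ctr (2.53, 0.0034), where 5 of 14 were called. None of the 14 reached an unadjusted p under 0.05 between DNase and Lpr, and Mcl1, a survival factor downstream of BCMA, had the smallest p of the list, with a log2 difference of -0.40 (adjusted p = 0.85).

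The genes of ER folding and the unfolded protein response, many of them targets of Xbp1, were mostly higher in Lpr but by small amounts. Of 29, 27 were higher and 9 had an adjusted p under 0.05, with a median of 0.57, but the fold threshold left only Sdf2l1, an ER chaperone partner (log2 2.02, adjusted p = 0.0067), whose call was lost without Ctr 2 or Lpr 3. Creld2 was at 1.74 (0.0088) and Hsp90b1, the chaperone GRP94, at 1.13 (0.0067). Between DNase and Lpr, 26 of the 29 estimates were below 0 (median -0.35), and 11 had an unadjusted p under 0.05, where 5.6% of all genes did so. Their smallest p belonged to Hspa5, the chaperone BiP (log2 -0.68, adjusted p = 0.82), and none passed the adjusted threshold. The summed level of the list was 4043 to 4241 CPM in Ctr, 5841 to 8059 CPM in Lpr and 4900 to 5226 CPM in DNase, so every DNase kidney was below every Lpr kidney. Jchain and Mzb1 had no such order.

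None of 17 further genes of BAFF/APRIL signaling was called between Lpr and Ctr, and the median was 0.47. The list holds downstream genes and also the BAFF receptor and a related ligand and receptor, Tnfsf12 and Tnfrsf12a. Without Lpr 3 the count was 1, namely Tnfaip3, an inhibitor of NF-kB signaling (log2 2.31, adjusted p = 0.036). Adjusted p was under 0.05 for Relb (log2 1.45, 0.014) and Nfkb2 (0.91, 0.026), the transcription factor pair of the alternative NF-kB pathway, for Traf1 (1.59, 0.024), and for the kinase gene Chuk, which was lower (-0.61, 0.024). The BAFF receptor Tnfrsf13c had 0 to 11 counts in Ctr, 5 to 55 in Lpr and 15 to 56 in DNase, and was called in DNase against Ctr (log2 3.14, adjusted p = 0.038) but not in Lpr against Ctr (2.58, 0.28). That DNase call was lost without Ctr 2, Ctr 3, DNase 2, DNase 3 or DNase 4. Tnfrsf12a, the receptor for the related cytokine TWEAK, had the smallest p between DNase and Lpr (log2 -1.61, adjusted p = 0.82). Of 15 syndecan and heparan sulfate genes, relatives and modifiers of Sdc1, none was called in Lpr against Ctr or between DNase and Lpr, and the median was 0.13 for Lpr against Ctr. Sdc3 was at 1.40 (adjusted p = 0.054), and Gpc4 and Sulf1 were at 0.39 and 0.58. Sdc4 had the smallest p between DNase and Lpr (log2 -0.40, adjusted p = 0.85).

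Of 17 genes tested for signals that attract plasma cells or keep them alive, 10 were called higher in Lpr than in Ctr (3 with limma on log2(FPKM + 1)), with a median of 2.94, or 2.68 with the 3 genes near 0 in Ctr set to their lower bound. Il10 had 0 counts in every Ctr kidney, 10 to 37 in Lpr and 4 to 23 in DNase. Il21, the T cell cytokine of plasma cell differentiation, had 0 to 1, 5 to 13 and 4 to 15 counts, and its call was lost without Ctr 1 or Ctr 3. Without Lpr 2 or Lpr 3 Il10, and without Lpr 1, 2 or 4 Il21, did not pass the count filter. The number of genes called in this list was 9 without Lpr 3. Cd80, a ligand of CD28, rose by 4.72 on the log2 scale (adjusted p = 0.0034). Cxcl12, the bone marrow chemokine that retains plasma cells, was at 0.17 (adjusted p = 0.74), Itgb1 at 0.16 and Il6st at -0.03. Ccl28, a chemokine for IgA plasma cells, was at -0.81 (adjusted p = 0.57) and was called lower in DNase than in Ctr (-2.76, 0.018). Its level varied widely in Ctr, from 6.44 to 35.4 CPM (mean 16.1, SD 16.7), against 0.807 to 3.55 CPM in DNase. Cxcl10, a chemokine for CXCR3-bearing cells, had the smallest p between DNase and Lpr (-1.10, adjusted p = 0.82), at 53.4 ± 22.9 CPM in Lpr and 25.0 ± 2.42 CPM in DNase (SD, n = 4 each).

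Other immune cell markers moved with the plasma cell genes between Lpr and Ctr, and their part in the results above was not tested. Of 11 B cell markers tested, 3 were called higher in Lpr, namely Cd22 (log2 5.47, adjusted p = 0.0033), Cd79a (3.09, 0.035) and Cd72 (2.62, 0.0019), with a list median of 1.36. Without Lpr 3 the count was 4, with Bank1 added (log2 2.31, adjusted p = 0.0499). The summed level of all 13 listed markers was 5.58 to 15.9 CPM in Ctr, 41.4 to 66.4 CPM in Lpr and 42.2 to 90.0 CPM in DNase. The Cd79a call was lost without Ctr 1, Ctr 3, Lpr 2 or Lpr 4. Between DNase and Lpr, 11 of 12 B cell markers had the higher estimate in DNase (median 0.90), and 6 had an unadjusted p under 0.05, Pax5 leading with a log2 difference of 2.29 (adjusted p = 0.82). Pax5, the factor that Blimp-1 represses, was at 2 to 20 counts in Ctr, 4 to 7 in Lpr and 14 to 55 in DNase. DESeq2 called it between DNase and Lpr (adjusted p = 0.021). Jchain and Mzb1 stood at 0.34 and 0.42 in the same comparison. None of the 12 immunoglobulin constant genes sought was found by symbol in the counts used here, so none was analysed.

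All 11 T cell markers were called higher in Lpr than in Ctr (median 4.05), led by Cd6 (5.12), Cd5 (4.32) and Cd8a (4.31), and 11 of 14 monocyte and macrophage markers were (median 3.01), led by Ly6c2 (4.22), Lyz2 (4.00) and Itgam (3.74). Their summed levels were 92.7 to 207 and 1248 to 2498 CPM in Lpr against 6.38 to 10.3 and 226 to 302 CPM in Ctr. Monocytes, macrophages and neutrophils are known sources of BAFF. Of 8 neutrophil markers tested, 3 were called (Csf3r at 3.97, S100a8 at 2.89, S100a9 at 2.30), and the count was 1 without Ctr 2. Ly6g, which defines mouse neutrophils, had 0 counts in Ctr and 0 to 3 in the MRL/lpr kidneys. Between DNase and Lpr, these 3 lists had no called gene, and their smallest p belonged to Cd3d (-0.59), Cd14 (-1.46) and Ltf (-1.46), each with an adjusted p of 0.82 or more.

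Of 14 genes of the type I interferon response, 6 were called higher in Lpr than in Ctr and none was called in DNase against Ctr or against Lpr. In DNase against Ctr 12 had an adjusted p under 0.05, all of them higher except Rsad2, but at folds under the threshold. The genes called in Lpr included Oas3 (log2 2.89, adjusted p = 0.046), Bst2 (2.83, 0.00093) and Oasl1 (2.45, 0.028). The count against Ctr was 1 without Lpr 1, 2 without Ctr 1, and 3 without Ctr 2, Ctr 3 or Lpr 2. Without Lpr 3 the count was 8, with Irf7 and Oasl2 added. All 14 had the lower estimate in DNase (median -0.97 against Lpr), and 10 had an unadjusted p under 0.05, Oas1a with the smallest (-1.10, adjusted p = 0.82). The summed level was 152 to 175 CPM in Ctr, 306 to 692 CPM in Lpr and 244 to 298 CPM in DNase. Every DNase kidney was below every Lpr kidney on this sum, and above every Ctr kidney. Rsad2 (mean 29.9 CPM in Ctr, 25.3 CPM in Lpr and 17.5 CPM in DNase) and Ifit3 (26.6, 34.7 and 20.7 CPM) did not follow the sum and had their lowest means in DNase, with log2 differences of -0.77 (adjusted p = 0.0049) and -0.37 (adjusted p = 0.15) against Ctr. For Tnfsf13b this was not so, since DNase 1, DNase 2 and DNase 3 were above Lpr 1 and Lpr 4.

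Kidney epithelium markers were not called in Lpr against Ctr (0 of 16, median -0.38), but without Lpr 3 the count was 1, the proximal tubule gene Kap, which was lower (log2 -2.42, adjusted p = 0.0076). Slc12a3, the thiazide-sensitive transporter of the distal tubule, was at -0.97 (adjusted p = 0.052), Calb1 at -0.64 and the podocyte gene Podxl at -0.59. Krt8 had the smallest p between DNase and Lpr (log2 -0.61, adjusted p = 0.85). The summed level was 28111 to 28954 CPM in Ctr, 13075 to 29508 CPM in Lpr and 17076 to 20576 CPM in DNase, which shows kidney tissue in every library. Kap alone spanned 831 to 18430 CPM over the Lpr kidneys, and the highest Lpr sum was that of Lpr 3. Markers of fat and muscle that may cling to a kidney had none of 9 called in Lpr against Ctr (median -0.50, with Tnnt3 at -0.83, Acta1 at -0.72 and Ckm at -0.50). The 8 tested against Lpr had lower estimates in DNase throughout (median -1.86), with Acta1 at -1.59 (adjusted p = 0.82), and 3 were called lower in DNase than in Ctr, a count that was 0 without Ctr 1 and 1 without DNase 2 or DNase 3. Whether they bear on the values of the 10 genes was not tested.

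**Figure D5:**
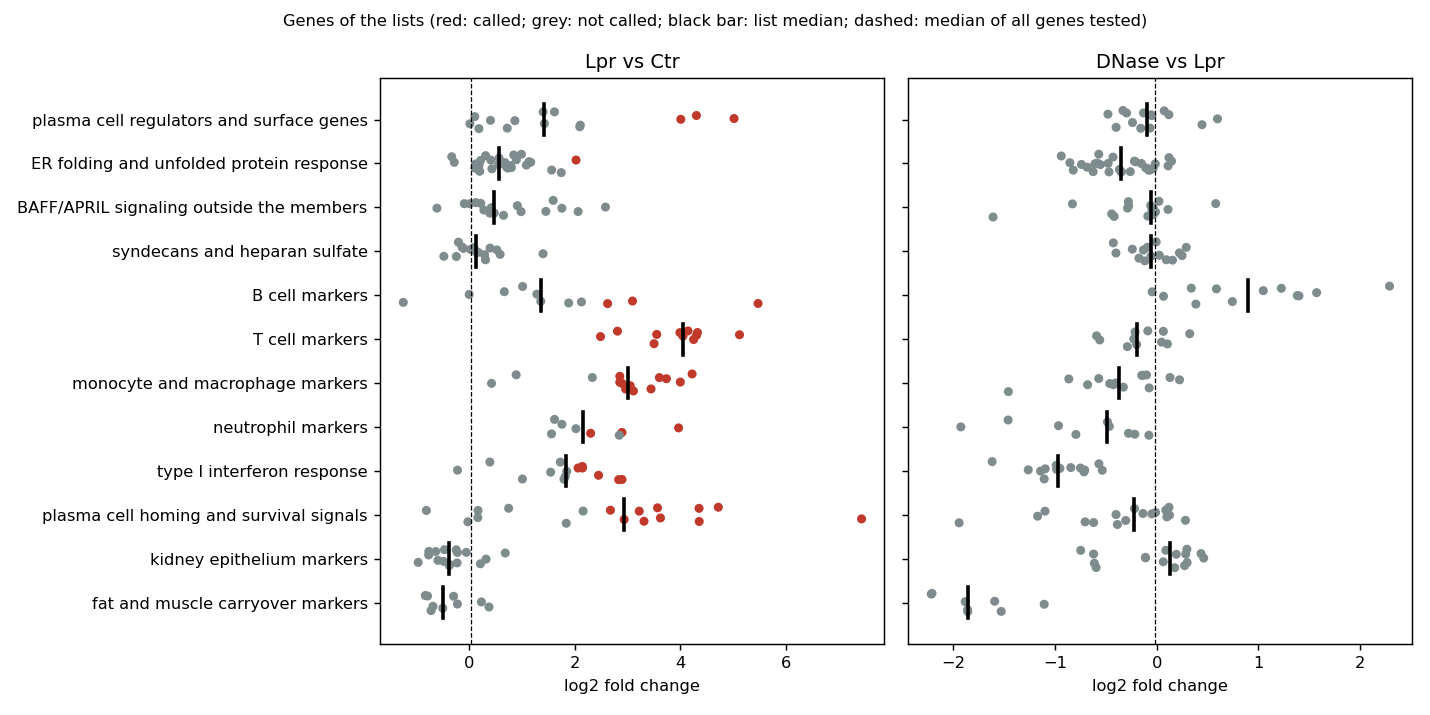
Log2 fold change of every tested gene of the 12 lists with listed genes, in Lpr vs Ctr on the left and DNase vs Lpr on the right, with called genes in red, a black bar for each list's median and a dashed line for the median of all genes tested. On the left the T cell, monocyte and homing lists lie highest, with medians of 4.05, 3.01 and 2.94, and on the right no gene is called, while the interferon list has a median of -0.97 and the B cell list one of 0.90.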

How the data were processed

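Total RNA of whole kidneys was extracted with TRIzol and made into libraries with the VAHTS Universal V6 kit. The authors deposited a table of raw read counts per gene and a table of FPKM values, and the methods name HTSeq for assigning paired-end reads to reference genes. The submitters' processing notes name fastp, HTSeq, DESeq2, R 3.2.0 and mm10. The program that mapped reads to the genome, the annotation and the strand setting are not given in the sources used here.

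Groups came from the sample titles. Counts were tested pairwise with edgeR 4.0.16 in R 4.3.3 (filterByExpr, TMM, quasi-likelihood test, Benjamini-Hochberg adjustment over all genes tested). Intervals are 95% intervals of these fits. DESeq2 1.42.0 and limma 3.58.1, the latter on log2(FPKM + 1) and log2(FPKM + 0.1), were alternatives, as were other filters and scalings, a replicate block and leaving out each library. Ratios used counts plus 0.5 per kilobase. The fitting code was tested on simulated data. Nothing states that the mice of a group were otherwise independent, which the p-values assume. Named genes were all 10 members and, of each list, up to 3 with the largest changes among those called in Lpr against Ctr (smallest p where fewer were called) and that with the smallest p in DNase against Lpr. Irf4, Slamf7, Ell2, Bmi1, Txndc5, Fkbp11, Nfkb2, Tnfrsf13c, Tnfaip3, Kap and Ly6g were named beyond this after values were seen. So were Rsad2, Ifit3, Cxcl12, Itgb1, Il6st, Ccl28 and Cd79a as ratio partner. The 10 members and the lists were chosen with earlier results of these data known. Positions and overlaps came from GENCODE M21 and promoters from RefSeq, both on GRCm38.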

Additional observations from a re-analysis of the deposited data

Results flagged for a closer look

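Among the 20 groups of 4 kidneys (10 genes in Lpr and in DNase), 2 held a kidney that lay far from the other 3, where chance alone gives about 1 in 20. Jchain in Lpr replicate 1 was at 143 CPM, while the other Lpr kidneys lay between 616 and 689 CPM. Mzb1 in DNase replicate 1 was at 10.2 CPM, while the other DNase kidneys lay between 25.2 and 27.2 CPM. Without Lpr 1, Jchain and Mzb1 were still called for Lpr over Ctr, and without DNase 1 they were still called for DNase over Ctr.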

How the results depend on the processing

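Between DNase and Lpr none of the 10 genes was called under any alternative run. The number called was 4 to 5 between Lpr and Ctr and 4 to 6 between DNase and Ctr with 1 library left out, and 2 in each of these with limma on log2(FPKM + 1), which compresses low levels. Jchain and Mzb1 were called against Ctr under every alternative. The number of all genes called between Lpr and Ctr was 929, against 1639 with adjusted p alone, 213 with log2(FPKM + 1) and 565 with log2(FPKM + 0.1), and between DNase and Ctr it was 967, against 3493, 190 and 549. DESeq2 called 5 genes between DNase and Lpr, where edgeR called 0. Estimates near 0 between DNase and Lpr changed sign. Prdm1, at 0.005 on the log2 scale, was at -0.002855 with DESeq2, -0.003528 with its size factors, -0.0007116 with no filter and -0.001515 with all 3 groups in 1 fit. Sdc1, at -0.06, was at 0.01115 with log2(FPKM + 1) and 0.016 with log2(FPKM + 0.1), and the BAFF to APRIL ratio, at 0.01, was at -0.02635 with log2(FPKM + 0.1). With 1 library left out the range was -0.2061 to 0.07012 for Sdc1, -0.2788 to 0.4896 for Prdm1, -0.1958 to 0.7294 for Tnfrsf17, -0.2659 to 0.3188 for the BAFF to APRIL ratio and -0.4501 to 0.01754 for the Jchain to Cd79a ratio. The cause of these shifts was not tested.

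With the replicate number as a block, 4 members were called between Lpr and Ctr and 5 between DNase and Ctr. Derl3 fell under the fold threshold (log2 1.93, adjusted p = 0.041), Cd79a lost its call (adjusted p = 0.082) and Tnfrsf17 was under the count filter. Xbp1 lost its adjusted p in both comparisons (0.15 and 0.081) and so did Prdm1 in DNase against Ctr (0.10). After centring on group means, same-numbered libraries correlated by -0.277 to 0.159. The labels do not say what the numbers stand for, and with so few libraries these values cannot settle whether they pair the mice. Xbp1 and Prdm1 lost theirs in DNase against Ctr with all 3 groups in 1 fit as well (0.14 and 0.21). Leaving immunoglobulin genes out of the normalisation was not run, and none of the constant genes sought was found by symbol in the counts used here. Tnfrsf17 rested on 0 to 29 counts per kidney, which left it near the count filter. Tnfsf13 had 30 to 80 counts, and its SD over the kidneys was 36.6% of the mean in Lpr and 34.1% in DNase.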
